A study of Auxenochlorella pyrenoidosa with 12 samples.

Results

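A group of 22 transcripts of the unicellular green alga Auxenochlorella pyrenoidosa stood at nearly the same level in cultures with 1.5 and 1 g/L NaNO3 and at least 2 times higher in cultures with 0.5 and with 0 g/L. They were taken from 16413 features, of which 11030 had an average level of at least 5 CPM (estimated counts scaled to a common library total of 1000000), so the 22 are 0.199% of the features at that level. The members were chosen by their mean CPM in the 4 groups. A feature was a member when the average of its 4 group means was at least 5 CPM, its N1 mean was less than 1.2-fold from its N1.5 mean, its N0.5 and N0 means were each at least 2 times both the N1.5 and the N1 mean, and N0.5 and N0 lay within 1.5-fold of each other. These conditions use the group means of all 12 libraries, so the levels of the members in the 4 groups are given as a description and not as a test.

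The alga carried the strain label SHOU-1002, and RNA was measured by sequencing of poly(A)-selected libraries. The control group, N1.5, was grown with 1.5 g/L NaNO3. Group N1 had 1 g/L and group N0.5 had 0.5 g/L, while group N0 was grown without added NaNO3 (0 g/L), and each group had 3 libraries that the design text calls biological repeats. All groups share this strain label, and the labels name no genotype, transgene or other agent. The labels used here give no time of harvest or growth stage. Library totals were between 22027761 and 24383226 estimated counts.

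Nitrate is the main nitrogen source of many green algae. It is taken up by membrane transporters, reduced to nitrite and then to ammonium, and the ammonium is built into glutamine and glutamate. When nitrate runs short, green algae are known to slow growth, to break down part of their photosynthetic pigment and protein, and to store carbon as starch and lipid. Gene names are not paired with features in the deposited tables. The members therefore are described by level, size of change, length and relation to other features of the same assembly, and none is assigned to a step of these pathways. By a rule on level and fold, 2 members and 2 related features are named, and the other members are called by their rank in fold, where fold is the lower of the N0.5 and N0 means divided by the higher of the N1.5 and N1 means.

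In each of the 22 members, all 6 libraries of N0.5 and N0 lay above all 6 libraries of N1.5 and N1. The same held for 5.51% of the features with at least 5 CPM. The rule favours this order through the group means, so nothing is read from the difference between these shares. The lowest library of N0.5 and N0 was between 1.40 and 5.56 times the highest library of N1.5 and N1, with a median of 1.99 times. On the length-scaled FPKM values all 22 members were separated in the same way. Most folds were close to the threshold, with 14 members under 2.5-fold, 2 from 2.5- to 3-fold, 5 from 3- to 4-fold and 1 above 4-fold. The median fold was 2.26.

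**Figure D1:**
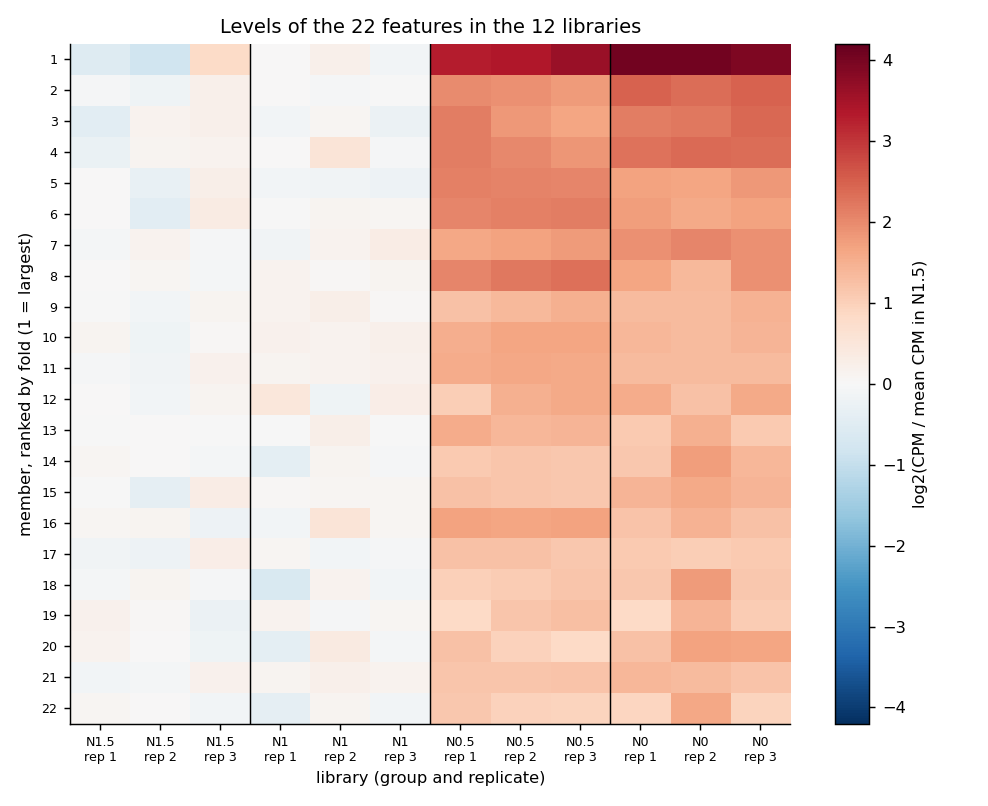
Heat map of the 22 members (rows, ranked by fold) in the 12 libraries (columns, by group and replicate), with colour for log2 of CPM over the mean CPM in N1.5. In each row every N0.5 and N0 cell is higher than every N1.5 and N1 cell, and the top row, at 10.5-fold, is the darkest in N0.5 and N0.

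The member with the highest level was TRINITY_DN7273_c0_g2_i19_4, ranked 10 by fold. Its CPM was 653, 541 and 635 in the 3 libraries of N1.5 and 691, 676 and 701 in those of N1. In N0.5 it was 1750.4, 1904 and 1913, and in N0 it was 1608, 1519 and 1624. On CPM from library totals, the N0.5 libraries were the highest and the N0 libraries lay below all of them. Both groups were far from N1.5 and N1. The group means rose from 610 ± 59.8 CPM (N1.5) and 690 ± 12.6 CPM (N1) to 1856 ± 91.5 CPM (N0.5) and 1584 ± 56.9 CPM (N0), each with SD and n = 3. After TMM scaling of the libraries its log2 fold change against N1.5 was 1.69 in N0.5 and 1.55 in N0. On the FPKM scale it was also the highest member, at 181 ± 17.7 in N1.5 and 547 ± 26.5 in N0.5.

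The member with the largest fold was TRINITY_DN5067_c0_g1_i4_2, at 10.5 times. Its CPM was 1.55, 1.26 and 3.99 in N1.5 and 2.30, 2.63 and 2.08 in N1. It rose to 22.2, 23.4 and 28.2 CPM in N0.5 and to 37.3, 37.7 and 34.3 in N0. All N0 libraries were above all N0.5 libraries, and N1.5 replicate 3 was the highest of the low libraries. The log2 fold change against N1.5 with TMM scaling was 3.53 in N0.5 and 4.19 in N0. Its match between N1 and N1.5 rested on N1.5 replicate 3: with that library the N1 mean was 1.03 times the N1.5 mean, and without it 1.66 times, outside the 1.2-fold limit. Features nearly restricted to N0, defined as at least 10 CPM there and 20 times each other group, numbered 81, and their median level in N1.5 replicate 3 was 1.75% of the N0 mean, against 0.872 and 0.722% in N1.5 replicates 1 and 2. It was 1.71% in N1 replicate 1, where the member was at 2.30 CPM beside 2.63 and 2.08 in the other N1 libraries, and 1.47% in N0.5 replicate 2. The part of this difference in the level of the member was not tested.

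**Figure D2:**
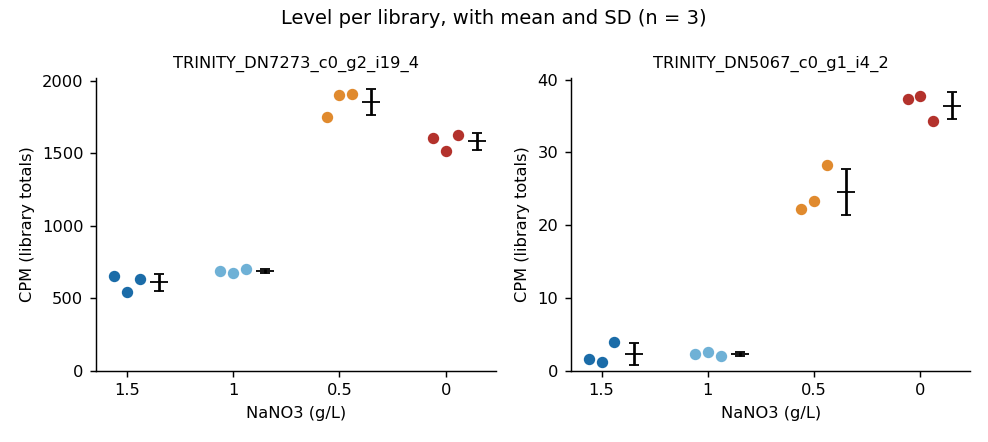
CPM (vertical axis, from 0) of the highest member (left) and of the member with the largest fold (right) in each library by NaNO3 concentration, with points for libraries and a dash with bars for mean and SD of 3. On the left N0.5 (1750.4 to 1913 CPM) is above N0 (1519 to 1624), and on the right N0 (34.3 to 37.7) is above N0.5 (22.2 to 28.2).

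The next folds were 3.72, 3.71, 3.54, 3.32 and 3.07, in the members ranked 2 to 6. The member ranked 2 had 47.8, 43.9 and 57.0 CPM in N1.5 and 50.1, 47.9 and 49.5 in N1. It had 197, 186 and 170.2 CPM in N0.5 and 276, 255 and 275 in N0, so N0 was above N0.5 without overlap. The member ranked 5 went the other way, from 22.0, 17.7 and 25.8 CPM in N1.5 and 20.1, 19.6 and 18.8 in N1 to 95.2, 93.1 and 90.7 in N0.5 and 71.2, 69.5 and 77.2 in N0. On CPM from library totals, its N0.5 libraries were all above its N0 libraries. With TMM scaling its log2 fold change in N0 against N0.5 was -0.27 (adjusted p = 0.041 by edgeR's quasi-likelihood test). The members ranked 3 and 4 were low throughout, with N1.5 means of 2.66 and 2.29 CPM and N0 means of 12.8 and 11.6 CPM.

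The member ranked 8 had the lowest ratio of N0 to N0.5 among the 22, at 0.698. Its CPM was 73.6, 76.3 and 67.9 in N1.5 and 80.7, 74.8 and 78.4 in N1. It reached 299, 335 and 358 CPM in N0.5 and 230.2, 186 and 277 in N0. The groups N0.5 and N0 did not overlap, although the N0 libraries were spread widely. The member ranked 11 had levels close to the highest member, with 527, 487 and 605 CPM in N1.5 and 586, 595 and 619 in N1. It had 1575, 1664 and 1638 CPM in N0.5 and 1368, 1359 and 1349 in N0.

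The last member by fold, ranked 22, was just inside the threshold at 2.02 and varied most in N0. Its CPM was 90.8, 87.1 and 79.4 in N1.5, 65.9, 93.5 and 79.8 in N1, 190, 168 and 163 in N0.5, and 162, 262 and 163 in N0. N0 replicate 2 stood well above the other two N0 libraries in this member. The member ranked 14 showed the same library high, with 61.0, 94.0 and 73.0 CPM in N0. N0 replicate 2 was more than 1.2 times both other N0 libraries in 5 of the 22 members, and in 11.0% of all features with at least 5 CPM. Among members this was as frequent in no other library, the nearest being N1 replicate 2 and N1.5 replicate 3 with 4 members each. Of all features with at least 5 CPM, it held for 7.28% in N1 replicate 2 and 3.25% in N1.5 replicate 3.

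On the FPKM scale, which allows levels to be compared between features, the averages of the members over the 4 groups were between 2.35 and 351, with a median of 21.5. The median over all features with at least 5 CPM was 23.2 FPKM. In N1.5 the median level of the members was 11.7 FPKM beside 24.1 FPKM for all such features, and in N0.5 it was 31.0 beside 21.1 FPKM. In N0 it was 32.2 beside 20.7 FPKM. The members ranked 10 and 11 by fold, at 351 and 302 FPKM, were well above the next, ranked 21 and 2, at 88.9 and 83.3 FPKM. By average CPM, 3 members were under 10, 13 between 10 and 100, and 6 at 100 or more.

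Of each library's counts, all members together held 0.169% ± 0.0143 at 1.5 g/L and 0.184% ± 0.00314 at 1 g/L (SD, n = 3). They held 0.512% ± 0.0149 at 0.5 g/L and 0.457% ± 0.00333 at 0 g/L. The 2 highest members made up 68.2% of this in N1.5 and 64.3% in N0. Without them the share was 0.0536% ± 0.00348 in N1.5, 0.164% ± 0.00157 in N0.5 and 0.163% ± 0.00526 in N0. The remaining 20 members thus held nearly equal shares at 0.5 and 0 g/L, and the excess of N0.5 in the total came from the highest pair. These shares use library totals. With TMM scaling neither of the pair passed 0.05 between N0 and N0.5 (edgeR adjusted p = 0.158 and 0.083). In RNA from whole cultures, the number of cells and the RNA per cell cannot be told apart.

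All 22 members passed the filter on low counts and were tested with edgeR's quasi-likelihood test across 15429 features, with a call at an adjusted p under 0.05. Against N1.5, 22 were called higher in N0.5, where 30.6% of all tested features were, and 22 in N0, where 26.6% were. Against N1, 22 were called higher in N0.5 and 22 in N0, beside 29.1 and 25.6% of all features. The rule used all these comparisons, which also share their control libraries, so the counts follow largely from the choice of members. The median log2 fold change of the members with TMM scaling was 1.61 in N0.5 against N1.5 and 1.63 in N0 against N1.5, beside 0.05 and -0.01 over all tested features. With library totals in place of TMM the median of all features in N0 against N1.5 moved to -0.19, and that of the members to 1.45.

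**Figure D3:**
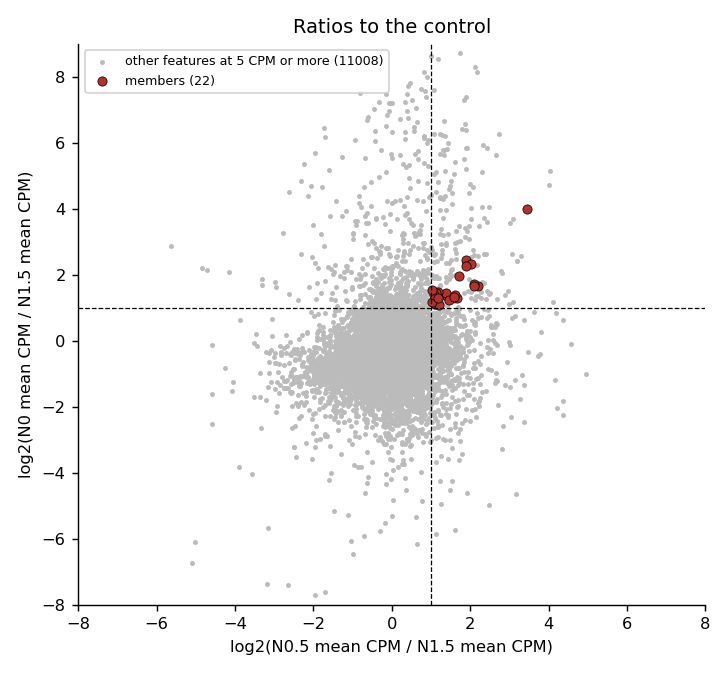
Each point is a feature with at least 5 CPM, with log2 of the N0.5 mean over the N1.5 mean on the horizontal axis and log2 of the N0 mean over the N1.5 mean on the vertical axis; dashed lines mark 2-fold. All 22 members lie beyond both lines, with median ratios of 2.89 in N0.5 and 2.74 in N0 and the farthest at 10.8-fold in N0.5 and 16.1-fold in N0; both axes share the N1.5 libraries.

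Between N1 and N1.5, 0 of the 22 members were called by edgeR, 0 by DESeq2 and 1 at an unadjusted edgeR p under 0.05, while 7.58% of all tested features were called by edgeR. The ratio of the N1 to the N1.5 mean was between 0.892 and 1.16, and the N1 mean was above the N1.5 mean in 14 members and below it in 8. The rule holds this ratio within 1.2-fold. Without N1.5 replicate 3, 3 members were called higher in N1. The share of all tested features called without that library was not counted, so nothing is read from this count.

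Between N0 and N0.5, which the rule holds within 1.5-fold, 12 of the 22 members were called by edgeR, 9 higher in N0 and 3 lower, beside 34.2 and 33.1% of all tested features. With library totals in place of TMM the split was 4 higher and 6 lower. Under TMM no called member reached 2-fold. Without N0.5 replicate 3 the count fell to 6, and without N0.5 replicate 2 to 7. Shares of all tested features called were not counted under these alternatives, so nothing is read from the changed counts. On CPM from library totals, the N0 mean was above the N0.5 mean in 14 members and below it in 8, with ratios from 0.698 to 1.48.

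Few features combined all conditions. Among the 11030 features with at least 5 CPM, 9258 met the limit between N1 and N1.5, 6042 the limit between N0.5 and N0, and 88 the 2-fold condition. Of these 88, 22 were members, 18 missed the N1 limit only, 19 missed the limit between N0.5 and N0 only, and 29 missed both. Of the 19, 11 were higher in N0 and 8 in N0.5. A further 25 features met every condition except the minimum level.

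At the 2-fold threshold, the 5 members just inside had folds of 2.02, 2.04, 2.04, 2.05 and 2.11. The 5 features just outside, which met the other conditions, had folds of 2.00, 1.98, 1.95, 1.89 and 1.86, and in all 5 the N0.5 and N0 libraries also lay above all N1.5 and N1 libraries. Values thus ran on without a gap across the threshold.

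The rule was also applied to 2 replicate numbers of each group, and the levels were then read in the held-out number, which the choice had not used. With number 1 held out, 27 features were chosen, and in the held-out libraries 22 of them were at least 2-fold up, beside 0.852% of all features at 5 CPM or more. With number 2 held out these were 15 of 22 beside 1.05%, and with number 3 held out 17 of 25 beside 0.743%. Of the features chosen, 19, 16 and 18 were among the 22 members. A single library per group gives no test of these counts. The median fold in the held-out libraries was 2.30, 2.19 and 2.14, beside 2.28, 2.29 and 2.21 in the libraries that made the choice. In the held-out libraries 27 of 27, 22 of 22 and 24 of 25 had N0.5 and N0 above both N1.5 and N1. Of all features at 5 CPM or more, 11.1, 12.7 and 12.9% did. Those features were not selected for fold, and the members were chosen with earlier results of these data known. Nothing is therefore read from the difference between the chosen and all features.

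The whole rule was met less often in the held-out libraries, by 12 of 27, 6 of 22 and 10 of 25 features. The limit between N1 and N1.5 was met by 15, 10 and 15 of the chosen features, and that between N0.5 and N0 by 24, 17 and 19. Of the 22 members, 12 were chosen in all 3 rounds, 7 in 2 rounds and 3 in 1 round. Leaving out N1.5 replicate 3 alone left 15 features under the rule, all of them members, and 4 of the 7 members lost missed the N1 limit while the other 3 came to folds of 1.98, 1.95 and 1.93. Without N1.5 replicate 3, N1 replicate 1 and N0.5 replicates 1 and 2 together, 14 features met the rule, 12 of them members.

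The median coefficient of variation of the members between replicates was 11.2% in N1.5 and 8.86% in N1, beside 5.84 and 6.15% over all features with at least 5 CPM. In N0.5 it was 5.79% beside 5.80%, and in N0 6.74% beside 7.36%. The median FPKM of the members was below that of all such features in N1.5 and N1 and above it in N0.5 and N0. No comparison of spread at matched level was made. The largest coefficient of variation was 66.0%, for the member with the largest fold in N1.5.

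Most members were longer than the typical feature. Length was taken from the ratio of count to FPKM. It had a median of 2242 bases in the members, with quartiles of 1679 and 3107, beside a median of 1672 and quartiles of 1169 and 2398 over all features with at least 5 CPM. Of the 22, 16 were longer than the median of all such features and 10 were above their upper quartile, while 2 were below the lower quartile. The range was 597 to 5576 bases. No test was made, since features of an assembly are not independent.

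The feature names have the form that the Trinity assembler gives, in which the part up to the g number marks a Trinity gene, a set of contigs that Trinity groups by shared sequence, and the i number marks an isoform. The 22 members came from 22 different Trinity genes, so by name none was an isoform of another. Whether different Trinity genes hold parts or isoforms of the same gene was not tested. A total of 10 members were the single feature of their Trinity gene, or 45.5%, beside 45.4% of features with at least 5 CPM. The other 12 shared their Trinity gene with 15 non-members, all of which were tested, and 4 of those 15 had the name of the member up to the last number, whose meaning is not stated in the labels or file headers. Reads can be divided among features of the same Trinity gene by the counting, so these values are not independent of the members.

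The related non-members are features that missed the rule, so their difference from the members is partly fixed by the choice. Their counts are given as a description. Against N1.5, 6 of the 15 rose and 7 fell in N0.5, beside 30.6 and 31.3% of all tested features, and 2 did not pass edgeR's quasi-likelihood test. In N0, 4 rose and 7 fell, beside 26.6 and 31.2% of all features, and 4 did not pass. With library totals in place of TMM the split in N0 was 2 and 9, and the shares of all features under that scaling were not counted. The median log2 fold change was -0.32 in N0.5 and -0.08 in N0. Both comparisons share the N1.5 libraries.

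**Figure D4:**
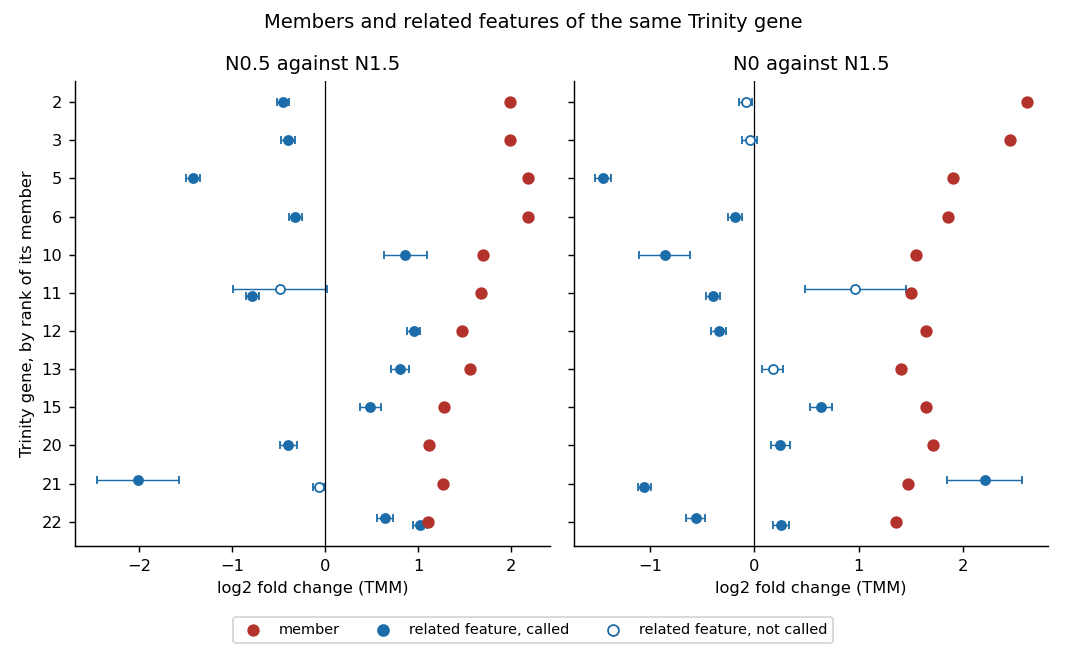
Log2 fold changes with TMM scaling in N0.5 (left) and N0 (right) against N1.5 for the 12 Trinity genes that hold a member and other features, by rank of the member; red points are members, blue points related features with bars for the standard error, filled where called. Members lie between 1.11 and 2.61, and related features lie on both sides of 0.

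The clearest fall among related features was that of TRINITY_DN5761_c0_g1_i1_4, which shares its Trinity gene with the member ranked 5. Its CPM was 89.5, 87.4 and 97.5 in N1.5, 82.9, 87.2 and 77.5 in N1, 29.6, 34.2 and 32.6 in N0.5, and 29.2, 31.4 and 28.3 in N0. All N0.5 and N0 libraries were below all N1.5 and N1 libraries. The log2 fold change against N1.5 was -1.42 with a standard error of 0.07 in N0.5 (edgeR adjusted p = 2.01e-09) and -1.45 with a standard error of 0.07 in N0 (edgeR adjusted p = 9.77e-10).

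The member's part of the counts of this Trinity gene was 19.2% ± 2.10 in N1.5 and 19.1% ± 0.69 in N1, and it was 74.3% ± 1.71 at 0.5 g/L and 71.0% ± 2.16 at 0 g/L (SD, n = 3). The sum of both features was 113 ± 9.24 CPM at 1.5 g/L, 102 ± 5.33 at 1 g/L, 125 ± 1.99 at 0.5 g/L and 102 ± 2.78 at 0 g/L. Their lengths were 1313 bases for the falling feature and 2411 bases for the member, and on the FPKM scale their levels were 69.8 and 9.09 in N1.5 and 22.5 and 30.1 in N0. The FPKM sum was lower at low nitrate, with 78.9 ± 5.56 (N1.5) and 71.1 ± 4.0 (N1) beside 62.6 ± 1.36 (N0.5) and 52.6 ± 0.93 (N0; SD, n = 3), and this difference was not tested.

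The other named fall was TRINITY_DN7329_c0_g1_i4_1, related to the member ranked 11. It had 109, 103 and 113 CPM in N1.5, 91.2, 92.6 and 90.5 in N1, 61.0, 56.2 and 60.4 in N0.5, and 66.1, 80.1 and 72.4 in N0. Its levels in N0 lay between those in N0.5 and N1. The log2 fold change against N1.5 was -0.78 with a standard error of 0.07 in N0.5 (edgeR adjusted p = 2.18e-07) and -0.40 with a standard error of 0.07 in N0 (edgeR adjusted p = 0.000124). Here the member made up most of the Trinity gene, at 83.1% ± 1.03 of its counts in N1.5 and 96.4% ± 0.24 in N0.5.

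In 11 of the 12 Trinity genes, the share held by the member was higher in all 6 libraries of N0.5 and N0 than in all 6 of N1.5 and N1. The exception was the gene of the member ranked 12, whose share was 15.3 to 18.1% in N1.5, 14.4 to 19.5% in N1, 17.1 to 26.2% in N0.5 and 39.7 to 46.8% in N0. Over the 12 genes the median share was 47.5% (N1.5), 44.6% (N1), 72.0% (N0.5) and 73.0% (N0). These shares use the counts that chose the members, and a rise of the member alone raises its share. The same order was not counted in Trinity genes without a member, so nothing is read from the 11 of 12.

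**Figure D5:**
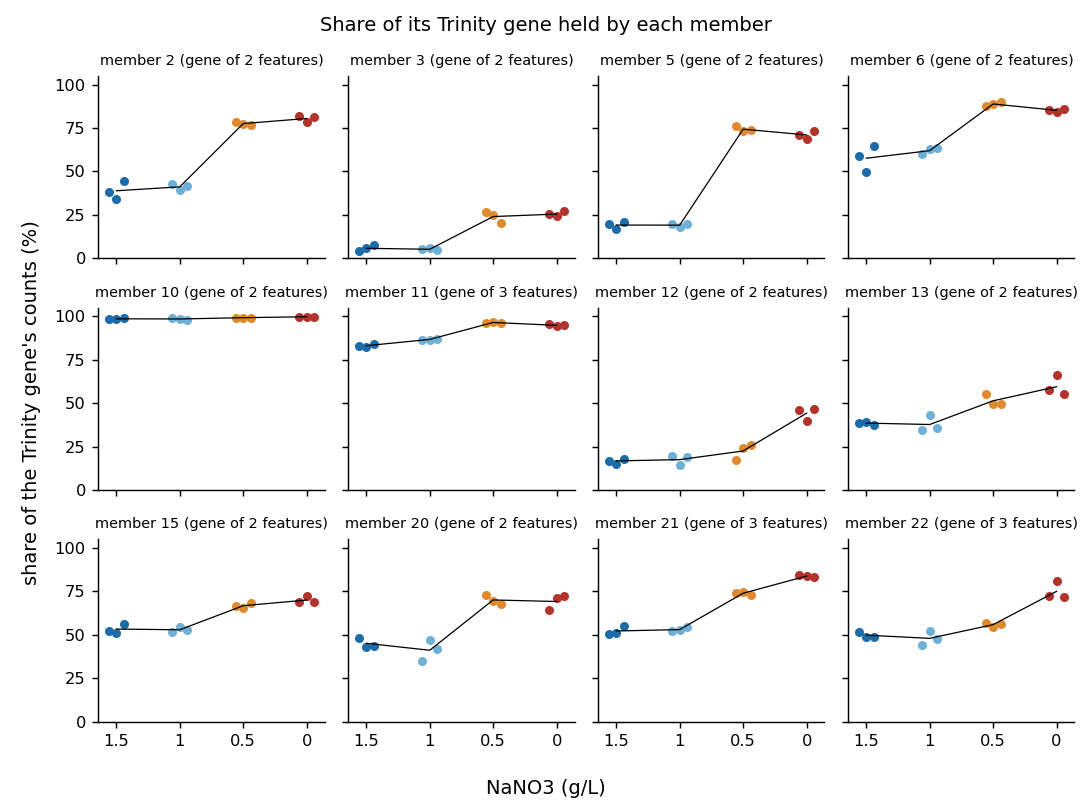
Share of the counts of its Trinity gene held by each of 12 members (vertical axis, percent) by NaNO3 concentration, with points for the 3 libraries of a group and a line through the group means. The share of the member ranked 5 goes from 19.2% to 74.3% between N1.5 and N0.5, while that of the member ranked 10 lies between 98.0 and 99.8% over the 12 libraries.

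When the counts of each Trinity gene were summed before the rule was applied, 15 of 11533 Trinity genes met it, 13 of them genes of members. Of the 12 member genes with more than 1 feature, 3 met the rule as sums, those of the members ranked 6, 10 and 11, with folds of 2.19, 2.27 and 2.07. The sums of the other 9 had folds between 0.856 and 1.87. The lowest was that of the member ranked 3, which made up 5.81% ± 1.60 of the counts of its gene in N1.5 and 25.5% ± 1.41 in N0.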

How the data were processed

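Per the labels' protocols, TRIzol extraction and oligo(dT) bead purification preceded library preparation by NEBNext Ultra. The submitters' processing notes name Trimmomatic 0.40, Bowtie2 2.4.5 and DESeq without role or order, and the assembler and counter were not given in the sources used here. Estimated counts (2.41 to 3.66% of a library's values whole within 0.001) and FPKM values, scaled to length and library total, were deposited by the authors.

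The members and lists were chosen with earlier results of these data known. CPM is the estimated count over the library total. Rounded estimated counts of all 12 libraries were fitted in edgeR 4.0.16 (quasi-likelihood F test, two-sided, TMM factors 0.908 to 1.07, filterByExpr, Benjamini-Hochberg adjustment over 15429 features). The fit was also run on simulated counts in which few features changed. Many more are called in these data, so nothing about the fit to them is read from that run. DESeq2 1.42.0 and limma 3.58.1, on log2(FPKM + 1) and log2(FPKM + 0.1), were alternatives. The named features are the member with the highest average CPM, the member with the largest fold, and the related features called lower in both N0.5 and N0 with the highest average CPM. No label states separate cultures beyond the word biological, so p-values measure the spread between these libraries. The replicates of a group differed by more than counting error (chi-square over degrees of freedom 4.90 to 17.3).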

Additional observations from a re-analysis of the deposited data

Results flagged for a closer look

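In 5 non-members that share a Trinity gene with a member, N0.5 and N0 differed from N1.5 in opposite directions, and the direct comparison of N0 with N0.5 also passed edgeR's quasi-likelihood test. They were singled out for this, and the direct comparison shares libraries with the other comparisons. How often this pattern occurs among all tested features was not counted. Reads can also be divided between these features and the members by the counting. The feature related to the member ranked 12 had 103 ± 2.55 CPM (N1.5), 186 ± 14.5 CPM (N0.5) and 71.5 ± 1.66 CPM (N0; SD, n = 3), and its log2 fold change from N0.5 to N0 was -1.29 (edgeR adjusted p = 1.08e-09). A feature whose name differs from that of the member ranked 22 only in its last number had 62.4 ± 6.40, 91.3 ± 8.84 and 37.3 ± 1.34 CPM, a change of -1.20 (edgeR adjusted p = 2.68e-08). The feature related to TRINITY_DN7273_c0_g2_i19_4 had 8.91 ± 0.70, 15.2 ± 1.35 and 4.37 ± 1.66 CPM, a change of -1.72 (edgeR adjusted p = 2.04e-05). The reverse direction was seen in a feature that differs in the same way from the name of the member ranked 21, at an average of only 1.07 CPM. It had 0.72 ± 0.12, 0.15 ± 0.03 and 2.93 ± 0.42 CPM, a change of 4.23 (edgeR adjusted p = 7.57e-07). A feature so related to the member ranked 20 had 11.6 ± 0.87, 8.29 ± 0.07 and 12.2 ± 0.64 CPM, a change of 0.65 (edgeR adjusted p = 2.22e-05). For this last feature the opposite directions depend on the scaling: its log2 fold change in N0 against N1.5 was 0.25 with TMM (edgeR adjusted p = 0.0280) and 0.07 with library totals (edgeR adjusted p = 0.559), while the other 4 features kept both calls under either scaling tried in place of TMM, library totals or RLE size factors.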

How the results depend on the processing

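The number of features that met the rule was 47 with no minimum level, 65 at 1.5-fold, 6 at 3-fold, 34 with N1 allowed within 1.5-fold of N1.5 and 14 without 4 libraries together, against 22 as reported. With TMM-scaled CPM it was 25, of which 19 are members, and with 1 library left out it was 15 to 25. In the 4 comparisons of N0.5 or N0 with N1.5 or N1, 22 members were called under every alternative that kept more than 1 library per group. The rule used these comparisons, so this follows largely from the choice of members. Shares of all tested features called were not counted under the alternatives, so nothing is read from the counts of calls. Without the 4 libraries together N0.5 is a single library, assumed to vary like the other groups. In N1 against N1.5 the count was 0 to 3 with 1 library left out and 0 under the other alternatives. In N0 against N0.5 it was 12 as reported, 6 to 11 with 1 library left out, 7 without 4 libraries together, 7 with limma on log2(FPKM + 0.1) and 0 at 2-fold or more; the cause was not tested. Of the related features, 3 were called at 2-fold or more in N0.5 and 3 in N0, since the threshold is stricter, and 8 to 11 were called in N0 with 1 library left out. The replicate numbers did not pair the libraries (correlation of deviations over 0.1 in 0 of 18 pairs), and the fit with the replicate block called 13 members in N0 against N0.5 and changed no other of these counts. For the named features no log2 fold change that was called changed sign, and 10 calls of 288 in the alternatives were lost, 9 of them for TRINITY_DN7329_c0_g1_i4_1 in N0 against N1.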
